A study of Mus musculus with 2 samples.

Results

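Windows of 50 kb whose promoter contacts reached at least 5 Mb on both parental alleles were described in F121-6 cells, a line of mouse embryonic stem (ES) cells whose chromosome pairs hold a 129 and a Mus castaneus (Cas) copy. A window was taken when the interaction distance was 5 Mb or more on 129 and on Cas and each allele had 50 or more interactions. This held for 2092 of the 43941 windows of the table, and these are called long-range windows below. The windows were thus chosen by both distances and both counts, so their distances are given as a description with no test.

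The study used Promoter Capture Hi-C, in which crosslinked chromatin is cut with HindIII, religated in the nucleus and enriched with RNA baits for the ends of fragments at gene promoters. There were 2 samples of a single group, replicates 1 and 2 of female F121-6 cells, grown with LIF on mouse embryonic fibroblasts (MEFs) that mitomycin C had inactivated. Each allele has a single value per window for both samples together, which leaves no measure of spread between replicates, and no label says that the replicates were separate cultures. All results come from this 1 hybrid line, the feeder strain is not given in the labels, and contact data do not measure expression, so the cell type could not be checked against marker genes.

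As background, most chromatin contacts link loci of the same chromosome and become rarer with distance. Promoters usually meet sequences of their own topological domain, while contacts over many megabases tend to link chromatin of the same compartment. Gene deserts and very long neuronal genes often belong to the inactive compartment, which in many cell types replicates late and lies near the nuclear lamina. In this assay a fragment without a baited promoter is seen through ligation to a baited fragment elsewhere, so a desert can show contacts with distant promoters but none among its own fragments.

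Few long-range windows held an annotated promoter, and the sequences of such promoters are shown because the assay captures promoter fragments. On the 18 chromosomes whose promoters were analysed here, 105 of 2043 long-range windows (5.14%) held a RefSeq promoter, against 38.7% of other windows with at least 50 interactions per allele. These were 16 promoters of 15 protein-coding genes and 108 promoters of long non-coding RNA (lncRNA) genes. Of the 16 coding promoters, 8 lay at the outer start of the gene and 8 at an internal start. The promoters of the 4 windows with the most interactions among those with a gene other than a gene model are printed here as RefSeq gives them on GRCm38.p6, 5′ to 3′, from 250 bases before to 50 after the start, with every CG dinucleotide in capitals.
Arrdc4, chr7:68749189-68749488, minus strand: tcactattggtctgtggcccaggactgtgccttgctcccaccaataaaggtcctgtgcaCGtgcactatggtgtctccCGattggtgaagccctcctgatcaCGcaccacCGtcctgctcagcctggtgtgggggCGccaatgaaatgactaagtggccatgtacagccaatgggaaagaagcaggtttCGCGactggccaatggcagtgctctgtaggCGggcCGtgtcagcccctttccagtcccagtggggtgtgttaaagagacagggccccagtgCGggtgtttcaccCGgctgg
Rorb, chr19:19001068-19001367, minus strand: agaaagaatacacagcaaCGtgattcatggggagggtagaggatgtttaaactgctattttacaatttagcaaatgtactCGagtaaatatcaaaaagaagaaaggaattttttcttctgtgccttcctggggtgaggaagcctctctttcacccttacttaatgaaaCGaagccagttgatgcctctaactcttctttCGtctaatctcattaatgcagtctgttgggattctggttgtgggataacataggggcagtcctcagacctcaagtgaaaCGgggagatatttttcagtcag
Pcdh15, chr10:73821617-73821916, plus strand: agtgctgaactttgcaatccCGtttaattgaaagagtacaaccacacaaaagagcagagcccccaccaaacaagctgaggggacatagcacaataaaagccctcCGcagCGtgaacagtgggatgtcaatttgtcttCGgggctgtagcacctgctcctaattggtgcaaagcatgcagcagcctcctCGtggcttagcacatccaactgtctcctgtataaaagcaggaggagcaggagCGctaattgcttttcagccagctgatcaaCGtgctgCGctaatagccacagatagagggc
Cntnap2, chr6:47244146-47244445, plus strand: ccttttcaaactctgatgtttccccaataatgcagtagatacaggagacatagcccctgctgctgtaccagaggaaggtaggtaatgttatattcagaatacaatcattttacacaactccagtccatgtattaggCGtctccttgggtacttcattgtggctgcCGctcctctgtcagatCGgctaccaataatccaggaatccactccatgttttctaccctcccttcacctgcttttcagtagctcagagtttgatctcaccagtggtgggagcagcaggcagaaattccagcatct

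The Arrdc4 promoter, at the outer start of an alpha-arrestin gene, has 11 CG dinucleotides and lies in the long-range window with the most interactions. The internal start of Rorb, an orphan nuclear receptor gene, has 5, that of Pcdh15 has 8 and that of Cntnap2 has 3. Over the 16 coding promoters in long-range windows the median was 5 CG in 300 bases (range 0 to 12) with a median GC content of 47.5%. The 17446 coding promoters of other windows had a median of 15 CG and a GC content of 57.7%. The lncRNA promoters ran the same way, with medians of 2 CG and 42.7% GC in long-range windows and 4 CG and 48.7% GC elsewhere. The HindIII recognition sequence AAGCTT, which is the same on both strands, was present in 2 of 16 coding and 19 of 108 lncRNA promoters of long-range windows, against 6.49% of coding and 8.83% of lncRNA promoters in other windows and 7.34% of all 28210 promoters placed in windows. These are descriptions of annotated sequence, and which promoters carried baits was not tested. Of the 16 coding promoters in long-range windows 8 were internal starts, and most of the outer starts belonged to gene models or clones. The promoters of other windows were not split by kind of start or by gene model. The coding medians may thus set unlike kinds of promoter against each other.

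Contacts of the long-range windows were few and very long on both alleles. The median interaction distance was 8.62 Mb on 129 (quartiles 6.56 and 11.9 Mb, highest 32.5 Mb) and 9.18 Mb on Cas (6.86 and 13.1 Mb, highest 33.5 Mb). In the 40441 other windows with at least 50 interactions per allele the medians were 0.298 Mb on 129 and 0.301 Mb on Cas. Those of them with a summed count of 200 to 500 had longer medians, 1.44 Mb on 129 and 1.38 Mb on Cas, against 8.78 and 9.29 Mb in long-range windows of that count. The long-range windows had a median of 182 interactions on 129 (quartiles 136 and 248) and 125 on Cas (91 and 169), against 631 and 455 in the other windows. They covered 104.6 Mb, or 4.76% of the windows, and held 0.810% of all interactions, namely 423324 on 129 and 291749 on Cas. Low counts thus move with the long distances, and their part in them was not tested.

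Windows that were long on 129 were mostly long on Cas as well, as the plot of both distances shows. Of 42533 windows with at least 50 interactions per allele, 2988 (7.03%) reached 5 Mb on 129 and 3223 (7.58%) on Cas. The 2092 shared windows were 70.0% of the 129 list and 64.9% of the Cas list. The 896 windows that were long on 129 alone had medians of 6.88 Mb on 129 and 3.17 Mb on Cas. The 1131 windows that were long on Cas alone had 3.12 Mb on 129 and 7.02 Mb on Cas. Among the long-range windows the distances of the alleles were loosely related, with a Pearson r of 0.389 between log2 distances over 2092 windows. The points share libraries and the rule bounds both axes from below.

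**Figure D1:**
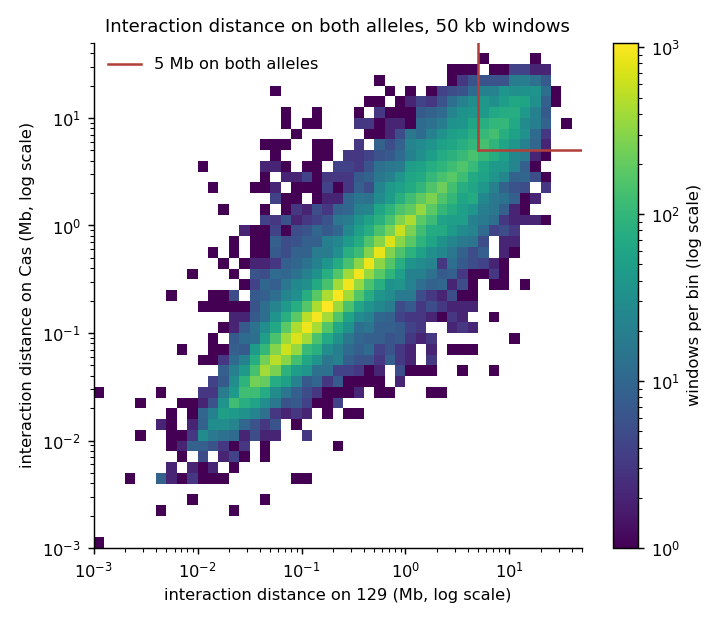
Interaction distance on 129 (x axis) against Cas (y axis), both in Mb on log scales, for windows with at least 50 interactions per allele. Colour gives the number of windows per bin on a log scale, and the red lines bound the 2092 windows at or above 5 Mb on both alleles, which lie along the upper end of the diagonal.

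Within the long-range windows the distance was more often longer on Cas. The 129 distance exceeded the Cas distance in 898 windows, the reverse held in 1193, and 1 window had equal distances. The median log2 ratio of the 129 to the Cas distance was -0.07 with a standard deviation of 0.63 over windows, against a median of 0 in the other windows. A distance at least 2-fold longer on 129 was seen in 96 windows and at least 2-fold longer on Cas in 178. More windows were longer on Cas than on 129 on 15 of 19 chromosomes. With 1 distance per allele and window no test was possible.

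The thresholds cut a continuum. Just inside on 129, a window of Auts2 on chromosome 5 (132250001 to 132300000) had 5.001 Mb on 129 and 5.28 Mb on Cas, and windows on chromosomes 14 and 6 had 5.002 Mb on 129. Just outside, windows on chromosomes 7, 9 and 11 had 4.994, 4.988 and 4.9875 Mb on 129. On Cas the nearest windows inside had 5.0105, 5.02 and 5.02 Mb and those outside 4.9895, 4.983 and 4.982 Mb. By count, the nearest inside had 51, 52 and 53 interactions on 129 and 50 in 3 windows on Cas. Those outside had 47, 46 and 46 on 129 and 49 in 3 windows on Cas.

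Long-range windows lay far from protein-coding genes. Of the 2092, 1699 (81.2%) held no protein-coding gene, against 39.3% of the other windows, and none held 2 or more, against 17.7%. The median distance from the window to the nearest coding gene was 458 kb (quartiles 97.3 and 901 kb, farthest 2195 kb), against 0 kb in the other windows. At a summed count of 200 to 500 the contrast was smaller, with 81.1% of 1493 long-range windows and 72.0% of 7173 other windows without a coding gene, and a median of 506 kb to the nearest one against 125 kb. The 5 Mb on either side of a long-range window held a median of 30 coding genes (range 4 to 230), against 67 (4 to 347) for the other windows.

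The share of long-range windows grew with the distance to coding genes beyond 50 kb. It was 1.58% where a coding gene overlapped the window (393 of 24946), 1.26% at up to 50 kb, 3.00% at 50 to 100 kb and 4.64% at 100 to 200 kb. It was 9.18% at 200 to 400 kb, 19.9% at 400 to 800 kb, 38.7% at 800 to 1600 kb (544 of 1407) and 42.1% beyond 1600 kb (75 of 178). The median summed count fell along the same classes, with 1856 interactions where a coding gene overlapped and 294 at 800 to 1600 kb, then 297.5 beyond. Among windows with a summed count of 200 to 500 the shares were 12.3% where a coding gene overlapped, 4.28% at up to 50 kb and 42.5% at 800 to 1600 kb. At such counts, windows inside coding genes were thus more often long-range than windows just outside them.

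**Figure D2:**
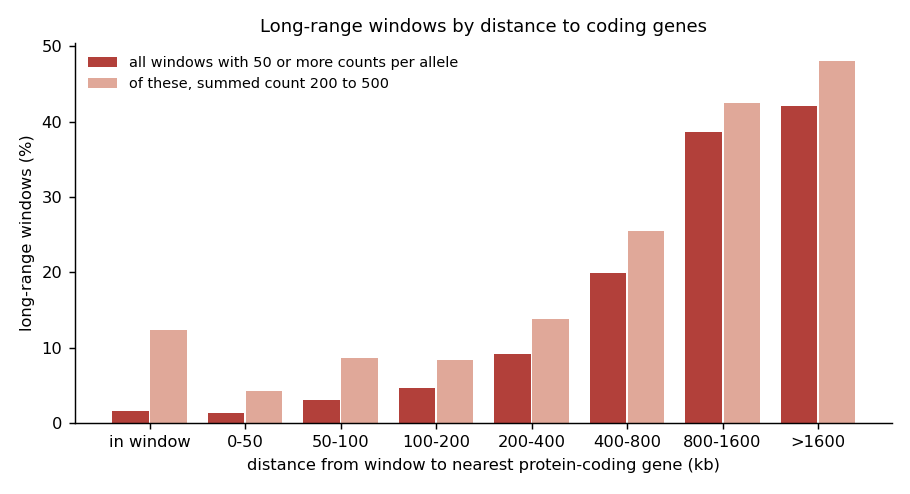
Share of windows that were long-range (y axis, %) by distance to the nearest protein-coding gene (x axis, kb). Dark bars are all windows with at least 50 interactions per allele and light bars are those with a summed count of 200 to 500. Among all such windows the share is 1.58% with a coding gene, 1.26% at up to 50 kb and higher in each class after that, up to 42.1% beyond 1600 kb.

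Of the 1699 windows without a coding gene, 386 held another annotated gene, with a lncRNA gene in 199 and a pseudogene in 193. Among all genes placed in windows, 2.93% of pseudogenes (223 of 7604), 1.39% of lncRNA genes (160 of 11547) and 0.506% of protein-coding genes (94 of 18573) touched a long-range window. Of 1064 microRNA genes, 4 (0.376%) did (Mir6350, Mir6343, Mir6238 and Mir7094-1). No tRNA gene of 307 did. Both counts are near the share of protein-coding genes and are not a result about these classes.

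Long-range windows formed runs along the chromosome. The 2092 windows fell into 853 runs of adjoining windows. A long-range neighbour adjoined 1628 of them (77.8%), and 464 stood alone. There were 112 runs of 5 or more windows, with 902 windows in all, and 23 runs of 10 or more. Of 500 blocks of 5 Mb, 334 held no long-range window and 26 held 50% of them. The 12 blocks with the most, chosen after their values were seen, held 616 (29.4%) and had a median of 5 coding genes, against 31 over all blocks.

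The longest run was a desert of 34 windows on chromosome 2 (98750001 to 100450000) without a coding gene. The nearest coding genes were Lrrc4c, 1118 kb before it, and Iftap, 1111 kb after it. The distance on 129 ran from 8.87 to 18.2 Mb with a median of 12.2 Mb, and on Cas from 5.85 to 20.7 Mb with a median of 12.6 Mb. Its interactions numbered 6378 on 129 and 4560 on Cas, so that 58.3% were on 129. All of its windows had a longer distance than 8 Mb on 129, and the Cas values were spread more widely. Of 192 windows from 4 Mb before to 6 Mb after its start, 103 were long-range, and the block from 95000001 to 100000000 held 80 long-range windows among 98 with a single coding gene. A second run of 14 windows (100750001 to 101450000) ended the domain, with medians of 11.5 Mb on 129 and 11.3 Mb on Cas. The window after it had 7.29 Mb on 129 and 0.993 Mb on Cas.

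**Figure D3:**
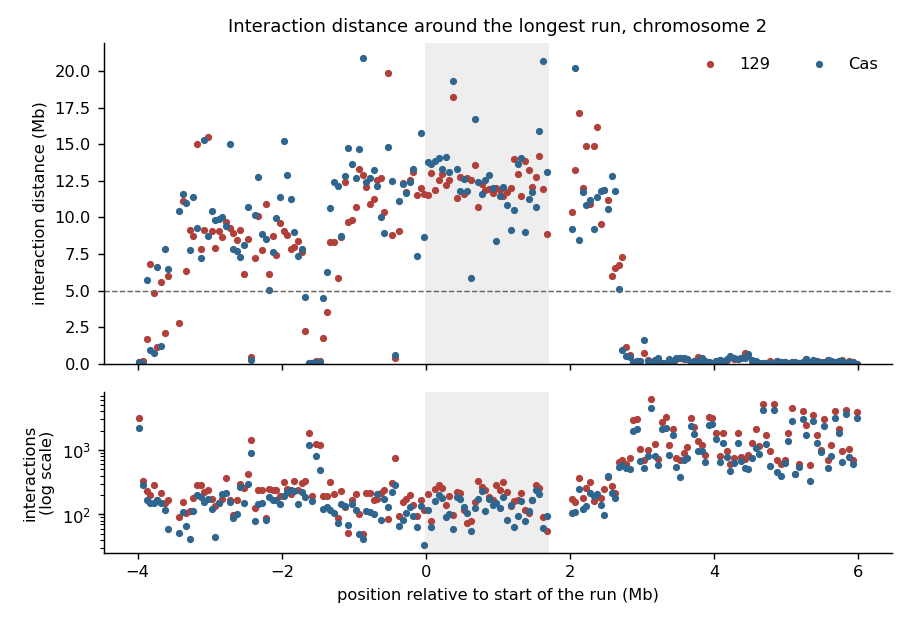
Interaction distance (upper panel, Mb) and interactions (lower panel, log scale) of each 50 kb window on 129 and Cas, by position relative to the start of the longest run on chromosome 2 (x axis, Mb). Grey marks the run of 34 windows and the dashed line 5 Mb. Both alleles lie mostly between 8 and 14 Mb over the desert and drop below 2 Mb beyond 3 Mb.

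The next longest run was 27 windows on chromosome 7 (93500001 to 94850000), 1321 kb before Tenm4, a teneurin gene of neuronal wiring. Its median distances were 9.19 Mb on 129 and 9.15 Mb on Cas, with 8842 and 5794 interactions. Runs of 20 and 19 windows lay on chromosome 1. That between Kcnt2, a potassium channel gene, and Cdc73 (141300001 to 142300000) had medians of 13.8 Mb on 129 and 12.8 Mb on Cas. That between Brinp3 and Pla2g4a (148200001 to 149150000) had 12.4 and 14.2 Mb. A run of 17 windows on chromosome 3 (71400001 to 72250000), between Otol1 and Sis, had 13.97 Mb on 129 and 13.003 Mb on Cas. None of these 5 runs held a coding gene.

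Windows outside the runs were described by their distance from the run. The 1290 windows adjoining a run had median distances of 4.59 Mb on 129 and 4.46 Mb on Cas. The medians were 2.26 and 2.20 Mb in 492 windows at 250 kb, 0.868 and 0.839 Mb in 326 at 500 kb, and 0.394 and 0.422 Mb in 228 at 1000 kb. These are different and shrinking sets, since each series of windows ends at the next long-range or missing window, so the rule holds the medians down at every step. The median summed count was 286.5 in adjoining windows, 543.5 at 500 kb and 761 at 1000 kb outside. The share without a coding gene was 79.3% beside a run and 52.6% at 1000 kb.

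The windows with the longest contacts lay mostly on chromosome 1. Ranked by the smaller distance of the alleles, 9 of the first 10 were on chromosome 1, 7 of them between 113950001 and 117050000 around Cntnap5a. Cntnap5a encodes a neuronal surface protein of the contactin-associated family. A window inside it (116350001 to 116400000) had 23.9 Mb on 129 and 23.2 Mb on Cas. Its counts were low, with 117 interactions on 129 and 90 on Cas. The window before it had 22.7 and 27.4 Mb. In the desert before Cntnap5a, a window at 114750001 had 22.3 Mb on 129 and 23.3 Mb on Cas. The remaining chromosome 1 windows, at 141800001 and 141450001, lay in the run after Kcnt2, with 23.0 and 21.388 Mb on 129 and 21.5 and 21.01 Mb on Cas. The window from another chromosome lay beyond Cadm2 on chromosome 16 (68350001 to 68400000), with 20.3 and 20.4 Mb. Summed counts of these 10 windows were 133 to 328.

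The 10 long-range windows with the most interactions had distances of 5.002 to 8.797 Mb on 129 and 5.114 to 8.7605 Mb on Cas, around or below the medians. In the Arrdc4 window of chromosome 7 (68700001 to 68750000), 811 interactions were on 129 and 525 on Cas, at 6.94 and 5.27 Mb. That of Elavl2, a neuronal RNA-binding protein gene, on chromosome 4 (91300001 to 91350000) had 791 and 543, at 8.35 and 7.80 Mb. Windows inside Car10, Opcml and Itpr1, which encodes an inositol trisphosphate receptor, were also among the 10 with the most. Interactions were more frequent on Cas in the Car10 window of chromosome 11 (93250001 to 93300000), with 511 on 129 against 565. The Itpr1 window of chromosome 6 (108250001 to 108300000) counted 636 on 129 and 321 on Cas. Over all long-range windows log2 summed count and log2 mean distance had an r of -0.253 (n = 2092, across windows of the same libraries).

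Protein-coding genes that touched long-range windows were long genes of the nervous system in many cases. They numbered 94 of 18573, with a median length of 570 kb against 18.9 kb over all coding genes, and 50 of the 94 were 500 kb or longer. A gene with more windows has more chances to touch one, so genes of 500 kb or more are the closer comparison: 50 of 214 (23.4%) touched a long-range window, and 9.10% of their windows were long-range. The list of neuronal adhesion and synapse genes held 47 measured genes, of which 26 (55.3%) touched one, with 195 of 886 windows (22.0%). Among its 36 genes of 500 kb or more, 25 (69.4%) touched one and 22.6% of windows were long-range, against 25 of 178 (14.0%) and 4.88% of windows for other genes of that length. The list was chosen with earlier results of these data known, and no test was made of it.

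Ptprd, a receptor phosphatase that organises synapses, had 25 long-range windows of 35 measured. For all genes, only windows present in the data are counted. Their median distances were 13.6 Mb on 129 and 11.8 Mb on Cas, against 6.30 and 1.92 Mb in its other windows. Long distances thus covered most of the measured windows of Ptprd on both alleles. Lrrc4c, the gene of a postsynaptic netrin-G ligand, had 19 of 27, at 8.31 and 10.2 Mb. The Slit receptor genes Robo1 and Robo2 had 15 of 21 and 6 of 32, at 13.5 and 7.40 Mb on 129 and 13.6 and 12.0185 Mb on Cas. Robo2 is thus an example of a long gene of the same family with fewer such windows.

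Among contactins and their partners, Cntnap5a had 16 of 19 windows, at 17.9 Mb on 129 and 16.5 Mb on Cas, the longest medians of the 24 genes plotted. Cntn4, Cntn5 and Cntn6 had 7 of 15, 6 of 24 and 5 of 9. Cntnap2 had 6 of 46 at 5.48 and 5.49 Mb, close to the threshold. Other adhesion genes were Opcml with 9 of 24 windows, Cadm2 with 8 of 18, Lrp1b with 7 of 10 and Ctnna2, a neuronal catenin gene, with 6 of 23. The 10 measured windows of Lrp1b leave most of this gene of 2058 kb unmeasured. Genes of channels and receptors were represented by Grm7, a metabotropic glutamate receptor gene, with 9 of 20, and Kcnip4, which encodes a partner of voltage-gated potassium channels, with 9 of 24. Auts2, a gene of neuronal development, had 10 of 23, Gpc5, a glypican gene, 10 of 30 and Car10, a carbonic anhydrase-related gene, 8 of 11. Ccser1, Naaladl2 and Agbl1 had 19 of 24, 13 of 23 and 8 of 19. A gene model of 64.7 kb, Gm14461, had 3 of 3.

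Of 89 cadherin and protocadherin genes, 5 touched a long-range window: Pcdh15, Pcdh9, Pcdh7, Cdh18 and Cdh9. Pcdh15, which encodes a tip link protein of hair cells, had 15 of 32 windows, at 11.5 Mb on 129 and 8.80 Mb on Cas, and included the highest 129 distance among the plotted genes. Pcdh9 had 9 of 18, at 7.35 and 14.9 Mb, and Pcdh7 had 6 of 9, at 7.95 and 10.9 Mb. By windows, 34 of 197 on this list (17.3%) were long-range.

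**Figure D4:**
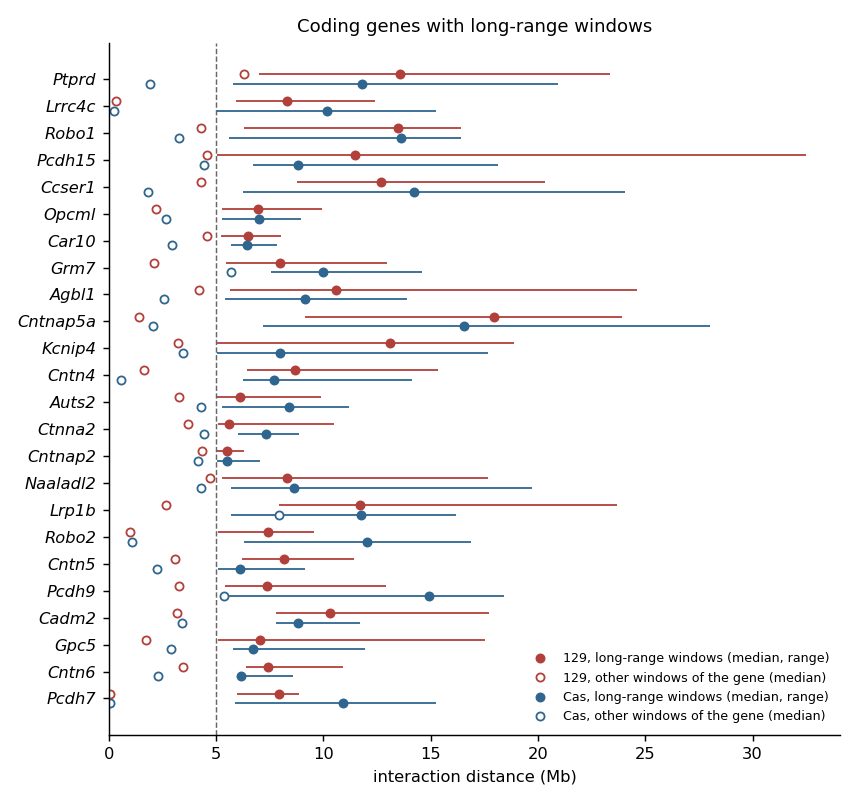
Interaction distance (x axis, Mb) in 24 of the coding genes with the highest summed count in long-range windows, gene models left out. Filled points and lines are the median and range over long-range windows on 129 and Cas, open points the median over the other windows of the gene with at least 50 interactions per allele, and the dashed line is 5 Mb. Lines start at or above 5 Mb by the rule, and most open points lie below it.

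In Lrrc4c and Pcdh7, chosen after their values were seen, the promoter window had many interactions at short distances. In Lrrc4c, windows with many interactions also interrupted the long distances further in. Short distances were not found at every start. Long-range windows held 8 coding promoters at the outer start of a gene, that of Arrdc4 among them. The windows of the internal starts of Pcdh15 and Cntnap2 were also long-range. In Lrrc4c the window with its annotated promoter (96300001 to 96350000) had 1456 interactions on 129 and 903 on Cas, at 0.486 and 0.287 Mb. The next window had 127 and 79, at 7.22 and 10.2 Mb. It was the first of a run of 14 windows with medians of 8.19 Mb on 129 and 9.46 Mb on Cas. Further in, a window at 97100001 had 1866 and 1218 interactions at 0.078 and 0.079 Mb, after which distances reached 8.30 and 10.6 Mb again at 97400001. Pcdh7 on chromosome 5 also had short distances at its promoter and long ones further in. Its promoter window (57700001 to 57750000) had 2902 interactions on 129 and 1994 on Cas at 0.072 and 0.062 Mb. The windows from 57900001 on had 5.96 Mb or more on 129 and 5.87 Mb or more on Cas. The window before these, at 57850001, had 4.67 and 3.04 Mb from only 182 and 233 interactions. Low counts and long distances mostly came together on both alleles, but a window of Lrrc4c at 97150001, with 194 and 160 interactions, and 1 of Pcdh7 at 57750001, with 305 and 239, had distances of 0.079 and 0.098 Mb and of 0.076 and 0.076 Mb.

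The lists of clustered receptor, defence and enzyme genes had no member in a long-range window. None of 833 olfactory receptor, 222 vomeronasal receptor, 37 taste receptor, 48 defensin, 58 serpin, 96 cytochrome P450, 31 Slfn or Ifi and 27 natural killer receptor genes touched one. Median distances over their windows were 0.071 to 0.405 Mb on 129 and 0.0648 to 0.336 Mb on Cas. Of 356 numbered zinc finger genes 1 did, Zfp804a on chromosome 2, with 2 of 4 windows. These lists hold short genes, and over coding genes under 500 kb the share was 0.240% (44 of 18359), so a count of 0 is near that background and is not a result about these lists. Immunoglobulin and T cell receptor segments had 9 of 614, in 2 windows. None of 17 ES cell genes, 10 genes of fibroblasts (the feeder type) or 7 housekeeping genes touched a long-range window, and distances in the 26 windows of ES cell genes had medians of 0.0925 Mb on 129 and 0.097 Mb on Cas.

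Long-range windows were unevenly spread over chromosomes. Their share was 7.97% on chromosome 1 (284 of 3564), 6.87% on chromosome 16, 6.81% on chromosome 3 and 6.71% on chromosome 6. It was 0.438% on chromosome 17 (7 of 1598), 1.59% on chromosome 13 and 1.77% on chromosome 19. The share went with chromosome length, measured as the end of the last window, with a Pearson r of 0.703 and a Spearman rho of 0.668 over 19 chromosomes of the same libraries. A distance is bounded by the chromosome, and 11 long-range windows (0.526%) lay within 5 Mb of an end of the measured span, against 8.00% of other windows. Chromosome 16 went against the length order, with its last window ending at 98.1 Mb. Median distances were longest on chromosome 4 for 129, at 12.3 Mb, with 11.7 Mb on Cas, and on chromosome 1 for Cas, at 11.7095 Mb, with 11.2 Mb on 129.

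The rule bounds both counts from below, so it also limits their ratio, and the allelic counts are given with that limit. The 304 windows that were long on both alleles but short of 50 interactions on either had 67.3% of their interactions on 129, and 290 of them were short on Cas. The 129 allele held 59.2% of the interactions of long-range windows (exact Clopper-Pearson 95% interval 59.1 to 59.3%, counting error only), against 57.5% (57.5 to 57.6%) in the other windows. More interactions were on 129 in 1835 windows, on Cas in 241 and equal in 16. On 18 of 19 chromosomes the share was higher in long-range than in other windows. The exception was chromosome 11, at 56.3% against 57.6%. Chromosome 10 had the highest share in long-range windows, 62.9%, against 61.0% in its other windows. Other windows without a coding gene had 58.2% on 129. By distance to the nearest coding gene, the direction was not uniform. The share was lower in long-range than in other windows at 50 to 100 kb (57.8% against 58.4%) and at 800 to 1600 kb (58.8% against 59.4%). In the remaining distance classes it was higher in long-range windows. At a summed count of 200 to 500 the shares were closer, 59.4% (59.2 to 59.5%) in 1493 long-range windows and 58.8% (58.8 to 58.9%) in 7173 other windows. With both counts at 100 or more, the share was 58.5% in 1422 long-range windows. A minimum of 100 on each allele bounds the ratio, as the rule does, so this share cannot show how the ratio goes with the count. The parts of counts and of gene distance in the difference were not tested.

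**Figure D5:**
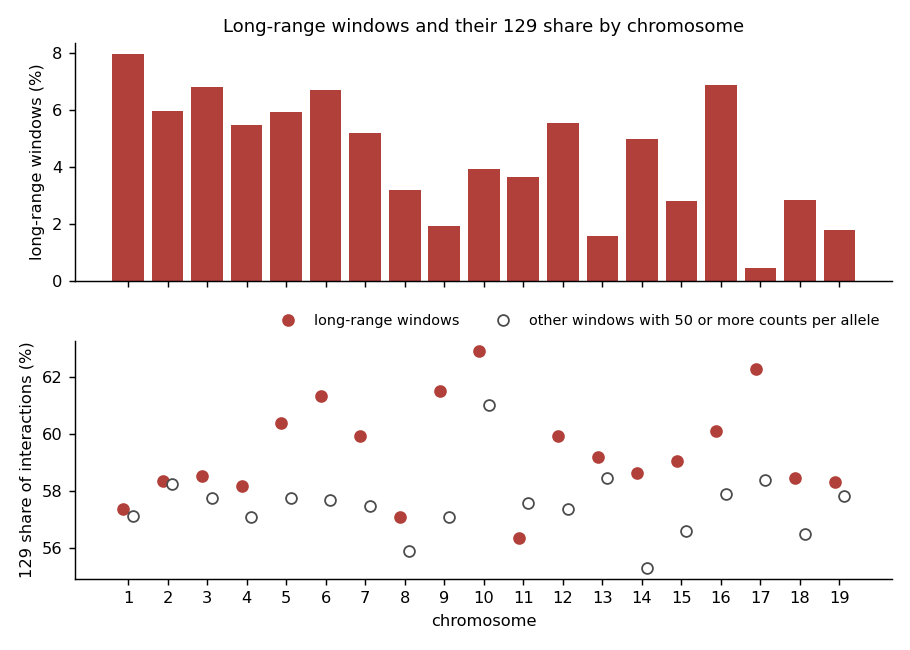
Upper panel, share of windows that were long-range (%) on each of 19 chromosomes. Lower panel, share of interactions on 129 (%) in long-range windows (filled points) and other windows with at least 50 interactions per allele (open points), on an axis that does not start at 0. The filled point is above the open point on 18 chromosomes and below it on chromosome 11.

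Window by window, the ratio of counts was set against the autosomal share. The centred ratio, log2((129 + 1)/(Cas + 1)) minus the median of all windows, had a median of 0.08 in long-range windows and a standard deviation of 0.45, where counting error alone gave a median of 0.17. In other windows with 200 to 500 interactions the standard deviation was 0.47, against 0.46 in long-range windows of that count. A 2-fold or larger ratio was seen towards 129 in 44 long-range windows and towards Cas in 23, together 3.20%. It was seen in 2.07% of other windows and in 3.41% of all windows of the table. The other windows had a median summed count of 1087 against 307, so these shares differ in depth and show no excess. A beta-binomial test, which allows for the spread between windows at each level of count, called 2 of 2092 long-range windows after Benjamini-Hochberg adjustment at 0.05 over all 43762 windows tested, where 0.697% of all windows were called. It called 1 towards 129, where 0.546% of all windows were called, and 1 towards Cas, where 0.151% were. With a single overdispersion for all windows it called 8 (0.944% of all windows), 5 towards 129 (0.727%) and 3 towards Cas (0.217%). The exact binomial test, which leaves out the spread between windows, called 836 (51.4% of all windows), 541 towards 129 (27.1%) and 295 towards Cas (24.3%). At an unadjusted p under 0.05 the first of these tests gave 49 of 2092 (2.34%), against 4.89% of all windows. The windows behind these background shares had no minimum of 50 on each allele, and all windows of the table had a median summed count of 974 against 307 in long-range windows, so the shares differ in depth and in values that the rule used and are not read against each other.

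The window called towards Cas lies inside Lrp1b, a gene of the low-density lipoprotein receptor family, on chromosome 2 (40950001 to 41000000). Its 90 interactions on 129 against 242 on Cas gave a 129 share of 27.1% (95% interval 22.4 to 32.2%), a centred ratio of -1.87 and an adjusted p of 0.0203 by the beta-binomial test. Its distances were 8.61 Mb on 129 and 11.7 Mb on Cas. The measured windows on either side had centred ratios of -0.58 and -0.10. The window called towards 129 holds immunoglobulin kappa segments (Igkv7-33 and Igkv6-32) on chromosome 6 (70050001 to 70100000). With 398 interactions on 129 against 97 on Cas, its 129 share was 80.4% (76.6 to 83.8%), with a centred ratio of 1.57 and an adjusted p of 0.0458 by the same test, at 5.25 Mb on 129 and 16.7 Mb on Cas. The adjoining windows, which were not long-range, had ratios of 0.12 and 1.05. These segments belong to a cluster of related copies, and how reads were placed among them was not tested.

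Larger ratios without a call were spread over other chromosomes. Towards 129, a desert window of chromosome 7 (53500001 to 53550000) held 254 interactions on 129 against 57 on Cas, and a window of Pcdh7 (57800001 to 57850000) held 309 against 71. In a window that overlaps the edge of Unc5d, a netrin receptor gene of chromosome 8 (28600001 to 28650000), 238 were on 129 and 57 on Cas. The 129 allele also led in windows without a coding gene at 63300001 on chromosome 12 (234 against 58) and at 114100001 on chromosome 10 (265 against 66). Cas led most, after the Lrp1b window, at 122000001 on chromosome 1, where 61 interactions were on 129 and 138 on Cas. A window inside Ptprd (76500001 on chromosome 4) had 101 against 208. None of these was called with the overdispersion fitted by count. With a single overdispersion all but the chromosome 12 window were called, which together with the Lrp1b and kappa windows makes the 8, and the exact binomial test called all of them.

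Neighbouring long-range windows had loosely related distances, which the rule bounds, and nearly unrelated count ratios. Over 1239 adjoining pairs, r was 0.411 for log2 distance on 129 and 0.351 for log2 distance on Cas, and 0.087 for the centred count ratio. The pairs share windows and libraries. In the longest run the centred ratio ran from -1.22 to 0.97 around a median of 0.04. Within long-range windows the count ratio and the distance ratio had an r of -0.043 (n = 2092).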

How the data were processed

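Promoter Capture Hi-C was measured in 2 samples of 1 group. Per the file headers, the deposited values are counts of interactions and an interaction distance on each allele in windows of 50 kb; the counts are whole numbers and were not normalised. Distances are all multiples of 500 bp and were read as bp. Alignment with Bowtie2 to mm10 is named in the submitters' processing notes. How reads were given to alleles, filtered and pooled, and what summary a distance is, are not given in the sources used here, and their effect on the allelic shares was not tested. The labels of both samples name the same columns, so every column was taken as pooled.

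Interactions summed to 50842396 on 129 and 37470557 on Cas over 19 autosomes, 57.6% on 129. Counts of windows with 10 or more interactions were tested against that share with a two-sided beta-binomial test (doubled smaller tail). An overdispersion was fitted in each of 10 classes of summed count, from 0.00882 to 0.0485. The test was also run on counts simulated from the same model with the fitted overdispersion. Such counts cannot show whether the model suits these windows. Intervals of shares cover counting error only. Those of medians come from the ranks of the windows, which share libraries and are not independent replicates. Genes and promoters were placed by RefSeq positions on GRCm38.p6, the same assembly as mm10. The 42056 genes placed stand for every window they overlap. Starts were raised by 1 to be 1-based.

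The windows and the 15 gene lists were chosen with earlier results of these data known. Named windows were the 10 with the largest smaller distance, the 10 with the highest summed count, up to 6 called per direction by ratio and 3 on each side of each threshold. The 5 longest runs, the 25 genes with the highest summed count and up to 3 genes per list were named as well, and some of these windows are given as ranges. Some results that the rule picks are not reported here. The uncalled windows of large ratio, the run on chromosome 3 and the windows of Lrrc4c and Pcdh7 were chosen after their values were seen. The alternatives were other tests, null shares, thresholds, minimums, pseudocounts, centres and chromosomes left out. Calculations ran in Python 3.11.15 with scipy 1.17.1, pandas 2.3.3 and numpy 2.4.6, and plots were drawn with matplotlib 3.10.9. Promoters of 1 of the 19 chromosomes were not analysed here.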

Additional observations from a re-analysis of the deposited data

How the results depend on the processing

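The count of 2 long-range windows with unequal allelic counts depended on the test: the exact binomial test called 836, a single overdispersion over all windows 8, a null of equal shares 0 and an adjusted p threshold of 0.01 called 0. It was 0 with both counts at 100 or more and 0 with both distances at 10 Mb or more, where neither called window is kept. The chromosome's own null share, a threshold of 0.1 and a tested minimum of 100 each called 2, and a distance minimum of 2 Mb called 3. The binomial test called 51.4% of all windows and leaves out the spread between windows. The 129 share of 59.2% was 58.5% with both counts at 100 or more and 59.1% at 2 Mb, and ran from 59.0 to 59.5% with each chromosome left out. The median centred count ratio of 0.08 was 0.0223 with both counts at 100 or more, with an interval of the median from -0.00358 to 0.0501. In the other 5 alternatives it stayed within its own interval. The median distance ratio stayed within its interval of -0.10 to -0.05 in all 4 alternatives. The share of windows without a coding gene, 81.2%, was 62.8% without any annotated gene, 77.6% with both counts at 100 or more, 83.5% at 10 Mb and 76.4% at 2 Mb. A minimum of 100 on both counts also bounds the ratio of the counts. Apart from the dropped windows, the cause of these shifts was not tested. No paired analysis was possible because the table holds no column of a single replicate, and for the same reason no replicate could be left out. At a median summed count of 307, counting error alone spreads the centred ratio of a long-range window by 0.17. The standard deviation over these windows was 0.45. The beta-binomial test allows for the spread between windows too, with the largest overdispersion, 0.0485, in the class of lowest counts. Both terms limit what it could call.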

Other observations

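A further 304 windows reached 5 Mb on both alleles with fewer than 50 interactions on either allele, 127 of them short of 50 on 129 and 290 on Cas. Their medians were 10.1 Mb on 129 and 11.8 Mb on Cas at a median summed count of 98.5, and 259 (85.2%) held no coding gene. Of these windows 156 adjoined a long-range window, and 67.3% of their interactions were on 129.

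The 4 microRNA genes in long-range windows lay on 3 chromosomes. The window of Mir6238 on chromosome 7 (53850001 to 53900000) had 20.012 Mb on 129 and 7.32 Mb on Cas, from 144 and 83 interactions. That of Mir6350 on chromosome 1 (47450001 to 47500000) had 6.33 and 6.82 Mb. Mir7094-1 lay in a window among immunoglobulin heavy chain segments on chromosome 12 (114450001 to 114500000) with 9.29 and 10.0 Mb.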
